A study of Mus musculus with 6 samples.

Results

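Glutathione transferases were followed in the adrenal glands of hypertensive BPH mice and hypotensive BPL mice. All probe sets of the array whose single annotated symbol was Mgst1, Mgst3, Gsta2, Gsta3, Gsta4, Gstm1, Gstm2, Gstm5, Gstt1 or Gsto1 were taken, which gave 10 of 8251 genes with 16 of 12422 probe sets. The BPH group was 3 arrays of the hypertensive strain and the BPL group 3 arrays of the hypotensive strain. All animals were male and 12 weeks old, the tissue was adrenal gland, and no treatment or engineered allele is named for either strain. The strains are separate selection lines, so blood pressure and other inherited differences between them cannot be told apart. The labels name 3 mice per strain without tying each array to its own animal, and p-values measure only the spread between arrays, which may be technical.

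Glutathione transferases join the thiol tripeptide glutathione to reactive compounds, which makes them more soluble and marks them for export. The soluble enzymes form classes named by Greek letters, whose members share much of their sequence, while the microsomal enzymes belong to an unrelated family of membrane proteins called MAPEG. The adrenal cortex makes steroids with cytochrome P450 enzymes that leak reactive oxygen, and its cells depend on glutathione to deal with peroxides and lipid aldehydes.

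Mgst1, a microsomal transferase and peroxidase of the endoplasmic reticulum and outer mitochondrial membrane, was lower in BPH than in BPL adrenals by a factor of 3.70 and was the single called member. None of the alpha, mu, theta and omega probe sets was called in either direction by limma, and 1 of them (Gstt1) had an unadjusted p under 0.05. Mgst2, the MAPEG relative of Mgst1 that is outside the 10 genes, was higher in BPH by a factor of 4.51. The other microsomal member, Mgst3, was not called.

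Signals are given after each array was scaled to the same median, and levels of different probe sets are not comparable with each other. Differences are BPH minus BPL on the log2(signal + 203) scale, on which the change of a dim gene is understated, and a probe set was called where its adjusted p over all 7453 tested probe sets was below 0.05. Of the 16 probe sets, 14 passed the filter on dim probe sets and 2 did not. Markers of other tissues varied between arrays. The summed signal of 15 skeletal muscle markers was 14910 to 15567 on BPH arrays and 38200 to 438057 on BPL arrays. Of the 13 tested, 8 were called lower, against 0.926% of all tested probe sets. The filter uses the mean over all 6 arrays. Several of these markers passed it through their BPL signals, such as Acta1 (mean 247 in BPH and 52319 in BPL), so the 2 shares are not strictly comparable. The liver marker Alb was at 711, 451 and 4732 on BPH arrays and at 323, 19442 and 1208 on BPL arrays. For the Gapdh controls, the 3' minus 5' difference in log2 signal was 0.169 ± 0.074 in BPH and -0.00142 ± 0.050 in BPL (SD, n = 3), higher in each BPH array. For the Actb controls it was 1.08 ± 0.16 in BPH and 0.856 ± 0.057 in BPL (exact permutation test, 2-sided, p = 0.1 for each, the smallest that 3 against 3 arrays allow). The part of these ratios in the differences given here was not tested.

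The microsomal class held the only called probe set. Mgst1 (93026_at) had signals of 8429, 5801 and 8479 in BPH adrenals and of 31600, 25767 and 27444 in BPL adrenals. The groups did not overlap, and the brightest BPH array lay far below the dimmest BPL array. The means were 7569 ± 1532 in BPH and 28270 ± 3003 in BPL (SD, n = 3). On the log2 scale BPH minus BPL was -1.89 ± 0.19 (SE, as for all differences), with a 95% interval of -2.33 to -1.45 (limma, Benjamini-Hochberg adjusted p = 0.0013). Over all tested probe sets 0.926% were called lower, 3.18% higher and 4.11% in either direction. A count of 1 in 14 is thus a result on Mgst1 and not on the family. Its difference ranked 29 from the lowest of 7453. It kept its call without BPL replicates 1 and 2, the arrays with the highest muscle signals (-1.85, limma adjusted p = 0.032). That left 1 BPL array, assumed to vary like the BPH arrays, whose summed muscle signal of 38200 was still above that of every BPH array, and the part of muscle RNA in the difference was not tested. It also kept it without BPH replicate 3 and BPL replicate 2, those with the highest Alb (-2.04, limma adjusted p = 0.0085).

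Mgst3, a MAPEG enzyme with glutathione peroxidase activity, had 1 tested probe set (96258_at), with signals of 19856, 19399 and 18664 in BPH and of 10306, 17632 and 14777 in BPL. Every BPH array was above every BPL array, by little over BPL replicate 2, and the BPL arrays were spread more widely. The log2 difference of 0.47 ± 0.21 did not pass (limma adjusted p = 0.25), and its 95% interval ran from -0.01 to 0.94. The second Mgst3 probe set, 99576_at, was dim, at 17.5 to 197 over the 6 arrays, and was not tested.

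Mgst2 (104742_at), whose human enzyme takes part in leukotriene synthesis, had signals of 11493, 7965 and 7952 in BPH and of 1650, 1922 and 1952 in BPL. All BPH arrays lay above all BPL arrays, the opposite order to Mgst1. The log2 difference was 2.17 ± 0.19 (limma adjusted p = 6.7e-04). Its second probe set, 161865_r_at, was dim in both strains, at 70.8 to 167, and was not tested.

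The windows around the annotated starts of these 3 MAPEG genes are shown because their differences were lower, higher and not called. They come from RefSeq (GRCm38.p6), run 5′ to 3′ on the gene's strand from 250 bases before the start to 50 after it, and carry matches in capitals to any of 3 motifs searched on both strands. These were TGACNNNGC, the core of the antioxidant response element that Nrf2 binds, CAAGGTCA, a site form of the steroidogenic factor Nr5a1, and TATAAA, the TATA box. Mgst1 is shown at chr6:138140277-138140576 (plus strand), Mgst2 at chr3:51660929-51661228 (plus strand) and Mgst3 at chr1:167393792-167394091 (minus strand).
Mgst1: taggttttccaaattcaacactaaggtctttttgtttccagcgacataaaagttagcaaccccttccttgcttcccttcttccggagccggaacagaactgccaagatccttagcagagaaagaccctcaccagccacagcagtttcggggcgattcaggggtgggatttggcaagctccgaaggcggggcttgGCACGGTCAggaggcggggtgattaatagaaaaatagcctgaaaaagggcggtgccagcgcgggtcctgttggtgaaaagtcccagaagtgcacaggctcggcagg
Mgst2: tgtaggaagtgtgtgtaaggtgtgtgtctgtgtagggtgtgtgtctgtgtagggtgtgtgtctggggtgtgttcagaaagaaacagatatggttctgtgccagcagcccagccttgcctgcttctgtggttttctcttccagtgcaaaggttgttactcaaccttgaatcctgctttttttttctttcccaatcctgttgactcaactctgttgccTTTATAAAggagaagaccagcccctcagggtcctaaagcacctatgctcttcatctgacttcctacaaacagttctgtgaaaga
Mgst3: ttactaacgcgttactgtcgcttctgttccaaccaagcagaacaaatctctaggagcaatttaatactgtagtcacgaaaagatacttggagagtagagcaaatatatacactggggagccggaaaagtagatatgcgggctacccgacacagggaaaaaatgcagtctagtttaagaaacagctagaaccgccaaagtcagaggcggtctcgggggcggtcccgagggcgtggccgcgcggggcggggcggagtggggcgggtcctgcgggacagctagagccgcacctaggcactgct
The capitals in Mgst1 are an antioxidant response element core on the opposite strand. Those in Mgst2 are TATA boxes on both strands that overlap each other, and the Mgst3 window held no match. A second Mgst1 start also had none, and which start the probe set follows was not analysed here. Windows were found for 9 of the 10 genes, 11 in all, and not for Gsta4. TGACNNNGC was in 3 of the 11 (Mgst1, Gsta3 and Gstm5), against 12.4% of all 32851 windows. TATAAA was in 3 (Gsta2, Gstm1 and Gstm5), against 13.6%, and CAAGGTCA in 0, against 1.56%. A match describes letters of the reference genome and does not show that a factor binds there. The sequences of BPH and BPL mice were not examined.

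The 3 alpha probe sets went different ways and none was called. Gsta4, which conjugates the lipid peroxidation aldehyde hydroxynonenal, had signals of 1679, 1021 and 1762 in BPH and of 2550, 1927 and 1836 in BPL (96085_at). All BPH arrays lay below all BPL arrays, with a narrow gap between BPH replicate 3 and BPL replicate 3. The log2 difference was -0.47 ± 0.22 (limma adjusted p = 0.28, 95% interval -0.98 to 0.04). Gsta3, whose human counterpart is a steroid isomerase, had signals of 1346, 1101 and 1423 in BPH and of 1091, 920 and 1008 in BPL (93015_at). All BPH arrays lay above all BPL arrays, though BPH replicate 2 and BPL replicate 1 were nearly level. The log2 difference was 0.30 ± 0.16 (limma adjusted p = 0.32, 95% interval -0.06 to 0.66). Gsta2, an alpha enzyme inducible by electrophiles, had signals of 1055, 1206 and 1250 in BPH and of 1568, 1317 and 713 in BPL (101872_at). The BPL arrays lay on both sides of the BPH arrays, and the log2 difference was 0.02 ± 0.24 (limma adjusted p = 0.97, 95% interval -0.54 to 0.58).

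The mu class had 8 probe sets for 3 genes that, in the RefSeq gene table, sit among close relatives, Gstm2 between Gstm3 and Gstm1, Gstm1 beside Gstm4 and Gstm5 beside Gstm7. In the manufacturer's naming, the suffix f marks a probe set made to a sequence family and r one for which design rules were dropped. Only Gstm2 93009_at and Gstm5 100629_at have neither, so signals of single mu genes are uncertain. None of the 7 tested was called by limma, and 0 had an unadjusted p under 0.05.

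Gstm1 has a bright family probe set, 93543_f_at, with signals of 56142, 57197 and 46443 in BPH and of 47452, 55000 and 57780 in BPL. The strains overlapped throughout, at a log2 difference of -0.01 ± 0.16 (95% interval -0.38 to 0.37, limma adjusted p = 0.99). Its other probe set, 161633_r_at, had 2447, 2891 and 2788 in BPH and 3960, 3248 and 3301 in BPL. There the BPH arrays were all lower, and at -0.35 ± 0.16 the difference was not called (limma adjusted p = 0.25).

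Gstm2, a mu enzyme known from muscle and other tissues, had signals of 14730, 15874 and 9165 in BPH and of 12609, 17699 and 21612 in BPL (93009_at). BPH replicate 3 was the lowest array and BPL replicate 3 the highest, and the others mixed. The log2 difference was -0.38 ± 0.27 (limma adjusted p = 0.44). The second probe set, 161357_r_at, gave -0.47 ± 0.24 (limma adjusted p = 0.30), from 1535, 1816 and 1775 in BPH and 3583, 1788 and 2219 in BPL. BPL replicate 1 stood apart from the other arrays on it but was next to the lowest on 93009_at.

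Gstm5, a mu enzyme best known from brain and testis, had 3 tested probe sets with differences of 0.16, 0.16 and -0.26. Its family probe set 100630_f_at was at 17748, 17882 and 17188 in BPH and at 15741, 15760 and 15770 in BPL. The strains did not overlap there, but the difference was 0.16 ± 0.14 and did not pass (limma adjusted p = 0.54). The BPL arrays varied by 0.0934% (SD over mean) on that probe set and by 19.9% on 100629_at, where signals were 4415, 3290 and 3374 in BPH and 2536, 3691 and 3651 in BPL. On 100631_r_at the signals were 416, 1957 and 1342 in BPH and 1162, 1882 and 1031 in BPL, and the spread within each strain was larger than the difference. The fourth, 161722_f_at, was at 91.2 to 667 and was not tested.

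Gstt1 of the theta class, which acts on small halogenated compounds, had signals of 2871, 2477 and 2360 in BPH and of 3032, 3567 and 4594 in BPL (95019_at). All BPH arrays were lower, by a log2 difference of -0.49 ± 0.19. Its 95% interval of -0.91 to -0.06 left out 0 before adjustment (unadjusted p = 0.029 in limma), and the adjusted p was 0.19. Gsto1 of the omega class, which reduces dehydroascorbate and mixed disulfides rather than forming conjugates, had signals of 7610, 6497 and 5315 in BPH and of 4408, 5485 and 4897 in BPL (97819_at). BPH replicate 3 lay below BPL replicate 2, so the strains overlapped. The log2 difference was 0.37 ± 0.18 (limma adjusted p = 0.28, 95% interval -0.04 to 0.78).

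**Figure D1:**
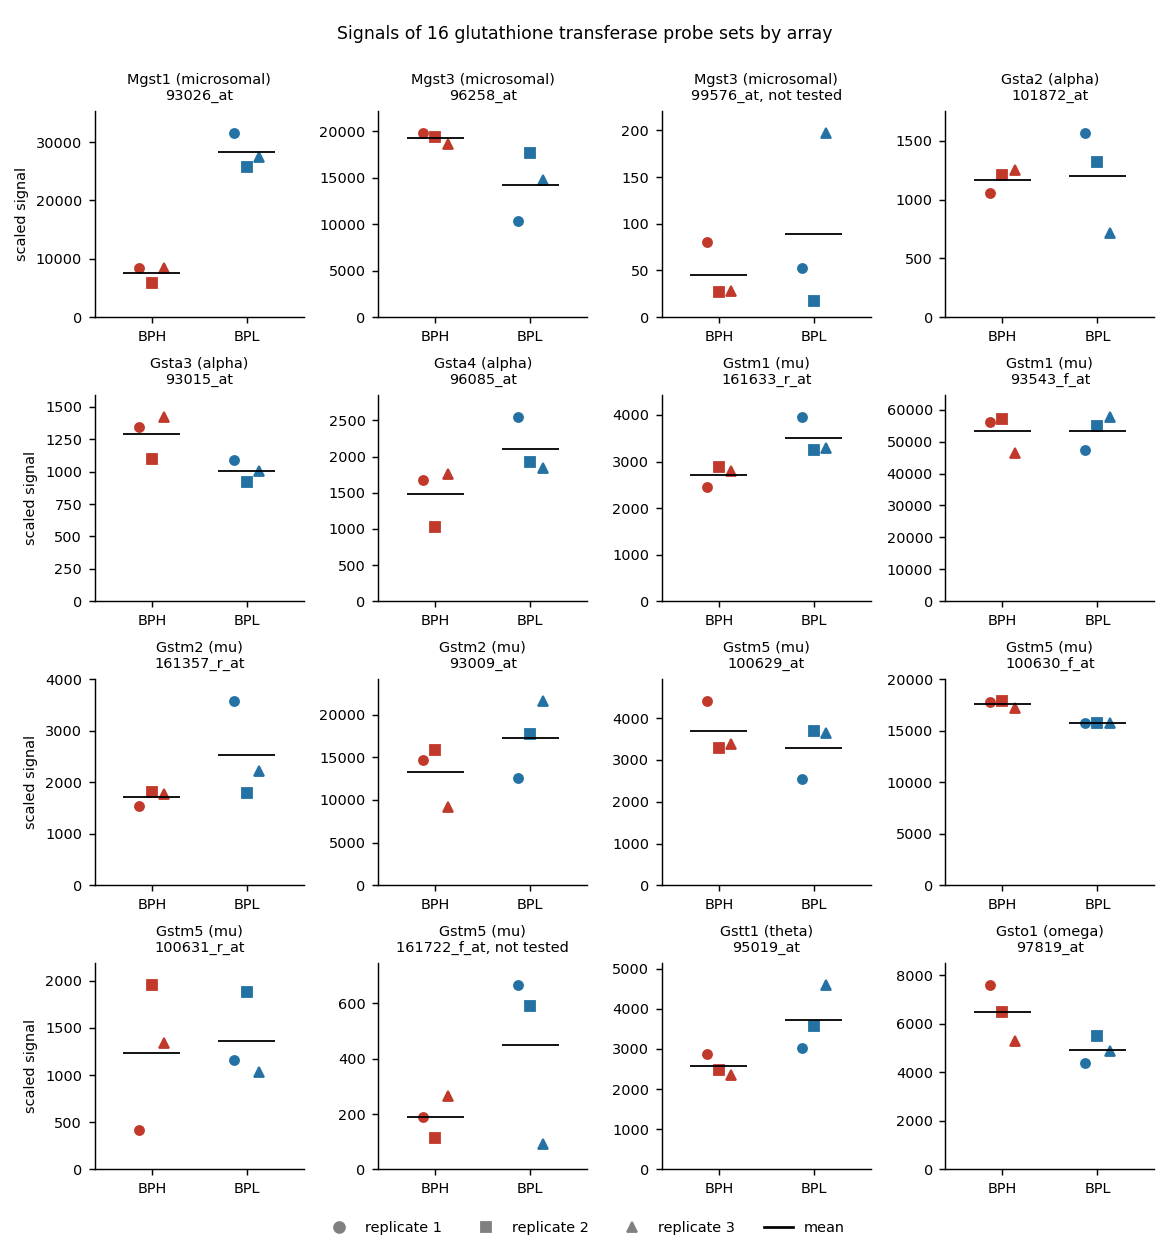
Scaled signal (linear axis from 0) of each of the 16 probe sets, with BPH arrays at the left and BPL arrays at the right of each panel, symbols for replicates and a bar for the mean of 3. Mgst1 lies at 5801 to 8479 in BPH and 25767 to 31600 in BPL, while most other panels show close or overlapping strains.

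Over the 14 tested probe sets, 6 differences were positive and 8 negative, with a median of -0.13. Over all tested probe sets 60.5% were positive and the median was 0.08. By class the medians were -0.71 for the 2 microsomal probe sets, 0.02 for the 3 alpha and -0.26 for the 7 mu. Under limma 0 were called higher, and 0 had a positive difference with an unadjusted p under 0.05. Unadjusted p was under 0.05 for 2, Mgst1 and Gstt1, against 20.6% of all probe sets. The 13 that were not called had an adjusted p of 0.19 to 0.99 and standard errors of 0.14 to 0.43, so differences of the size of Mgst1 would lie outside their 95% intervals.

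Groups did not overlap for 7 of the 14, with BPH higher for 3 (Mgst3, Gsta3 and Gstm5 100630_f_at) and lower for 4 (Mgst1, Gsta4, Gstm1 161633_r_at and Gstt1). Over all tested probe sets 27.6% did not overlap, 19.7% higher and 7.97% lower. These counts move with the scaling. With the authors' scaling 1 was higher and 4 were lower (14.1% and 14% of all), and after quantile normalization 2 were higher and 7 lower (14.7% and 13.5%). The lower ones under all 3 scalings were Mgst1, Gsta4, Gstm1 161633_r_at and Gstt1, and the higher one was Mgst3.

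**Figure D2:**
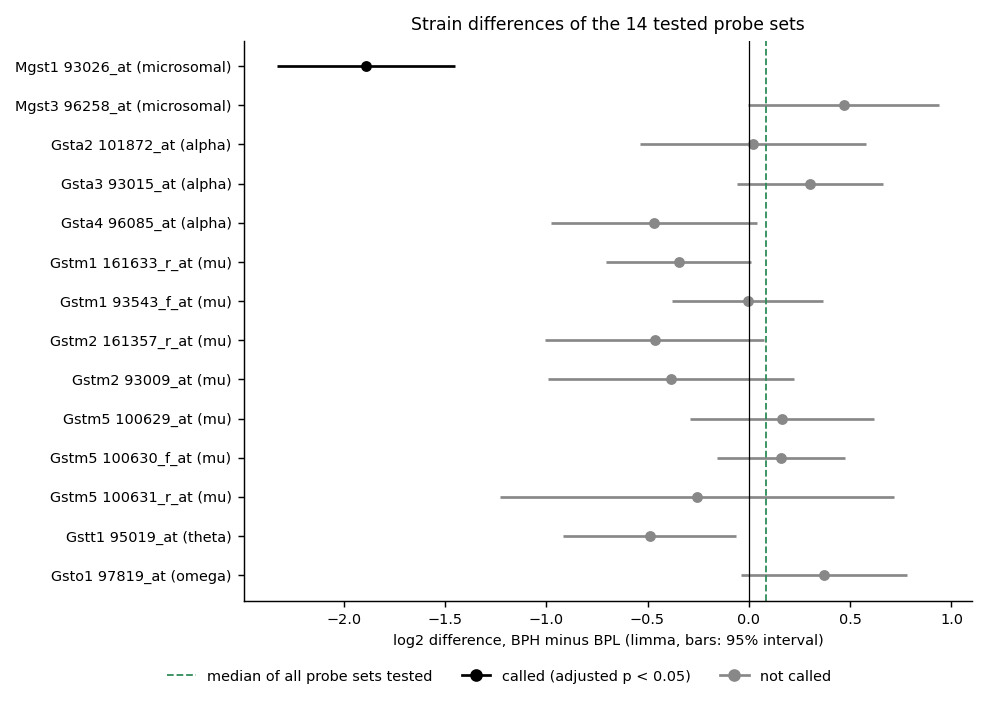
Log2 difference between strains (BPH minus BPL) for the 14 tested probe sets in order of class, with 95% intervals from limma and a dashed line at 0.08, the median of all probe sets tested. Mgst1 at -1.89 is the only one called, and the others lie between -0.49 and 0.47.

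The other genes of the pathway were taken from 5 lists, of which 47 of 67 genes were measured and 33 tested on the brightest probe set. Of these 3 were called higher and 0 lower by limma, and the median log2 difference was 0.15. Over all tested probe sets 3.18% were called higher and 0.926% lower, with a median of 0.08, and 14.2% had a positive difference with an unadjusted p under 0.05 and 6.4% a negative one. Of 10 genes listed as other transferases and relatives, which include Clic4 and Gdap1, Mgst2 was the only call. Those with a positive difference and an unadjusted p under 0.05 were 3, Mgst2, Gstk1 and Gdap1 (list median 0.13). Gstp1, the pi enzyme, differed by 0.05 ± 0.15 (95% interval -0.29 to 0.39), with signals of 22449, 25451 and 23129 in BPH and of 21418, 24798 and 22201 in BPL. Gstz1, the zeta enzyme of tyrosine breakdown, differed by 0.07 ± 0.14. Strains overlapped for both of these genes.

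By the brightest probe set of each, 0 of 7 genes of glutathione synthesis and recycling were called by limma, and 2 had a positive difference with an unadjusted p under 0.05 (list median 0.23). Gclc, the catalytic subunit of the enzyme that starts glutathione synthesis, differed by 0.44 ± 0.18 (limma adjusted p = 0.22), its modifier subunit Gclm by 0.15 ± 0.22 and the reductase Gsr by 0.23 ± 0.20. The 2 probe sets of Gss, the enzyme of the last synthesis step, disagreed, and Gss is named because its values stood out. Its brighter probe set 101425_at was at 5816, 4609 and 3851 in BPH and at 2039, 3596 and 3232 in BPL, and the difference of 0.67 ± 0.24 was not called (limma adjusted p = 0.17). Its probe set 162246_r_at was at 503, 743 and 768 in BPH and at 2892, 1666 and 2280 in BPL, a difference of -1.49 ± 0.22 (limma adjusted p = 0.0092). The strains did not overlap on either probe set, in opposite orders, so no direction is given for Gss.

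Of 4 glutathione peroxidases 0 were called by limma, and 1 had an unadjusted p under 0.05, with a negative difference (list median -0.21). Gpx1, the cytosolic enzyme, differed by 0.04 ± 0.22, the secreted Gpx3 by -0.15 ± 0.24 and Gpx4, which reduces lipid hydroperoxides in membranes, by -0.27 ± 0.16 (limma adjusted p = 0.37). Of 5 genes of conjugate export and mercapturate formation, Dpep1 was the only call (list median 0.41). This dipeptidase, which cleaves the cysteinyl-glycine left from conjugates, was at 3473, 3238 and 2851 in BPH and at 1419, 1513 and 1439 in BPL. The BPH arrays were all higher, and the log2 difference was 1.03 ± 0.15 (limma adjusted p = 0.0080). The call was lost without BPH replicate 2 (1.01, adjusted p = 0.0501) and without BPL replicates 1 and 2 together (1.05, adjusted p = 0.11), with differences about as large.

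Of 7 other conjugation and detoxification genes, Ephx1 was the only call (list median 0.15). This microsomal epoxide hydrolase was at 13300, 11426 and 14074 in BPH and at 7387, 6993 and 8598 in BPL, with no overlap. The log2 difference was 0.74 ± 0.16 (limma adjusted p = 0.043). That call was close to the threshold and was lost with the authors' scaling (0.63, adjusted p = 0.084), after quantile normalization (0.59, adjusted p = 0.11), with no filter (adjusted p = 0.11) and with the replicate block (adjusted p = 0.086). It was also lost without each single array but BPL replicate 3 and without either pair of arrays.

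**Figure D3:**
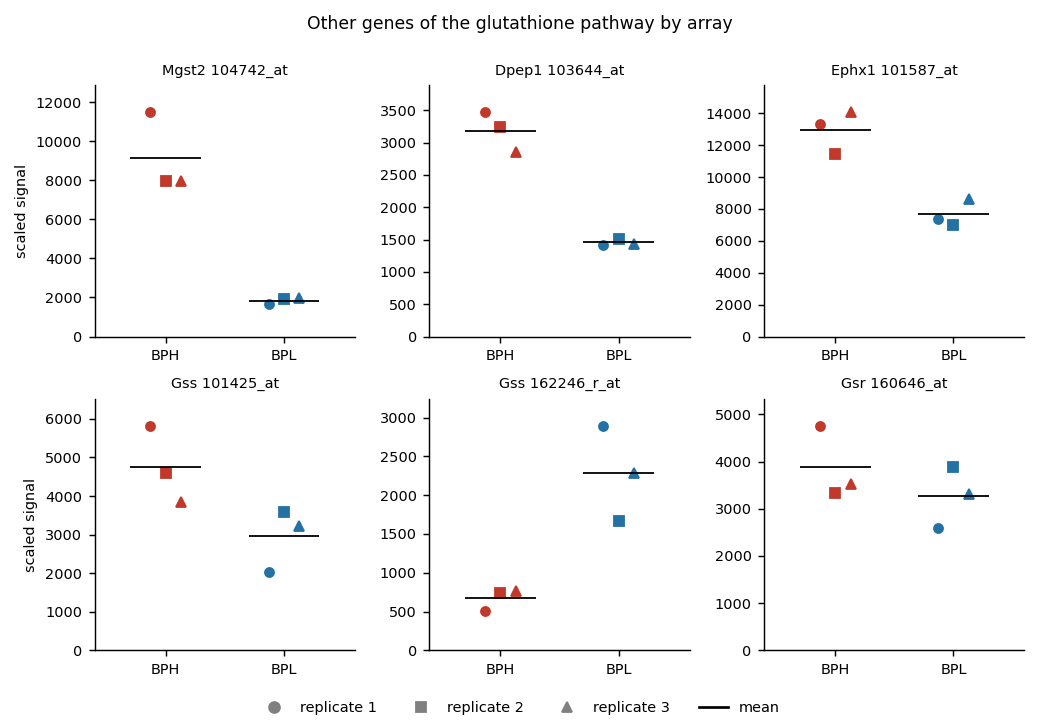
Scaled signal (linear axis from 0) of Mgst2, Dpep1, Ephx1, both Gss probe sets and Gsr, with BPH arrays at the left and BPL arrays at the right, symbols for replicates and a bar for the mean of 3. Mgst2 lies at 7952 to 11493 in BPH and 1650 to 1952 in BPL, and the Gss probe sets run in opposite directions.

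Mgst1 is set beside markers of other tissues array by array. Whether fewer cells of a type or less RNA per cell lies behind a bulk signal cannot be told apart. Mgst1 was at 31600 in BPL replicate 1 and 25767 in BPL replicate 2, while the mean log2 level of skeletal muscle markers was 12.9 and 13.8 and that of liver markers 9.73 and 12.2. In BPL replicate 3, with the lowest muscle level of that strain (10.8), Mgst1 was 27444. The summed signal of fat markers overlapped, at 212974 to 309654 in BPH and 282991 to 311676 in BPL. Their mean log2 level did not, at 13.21 to 13.49 in BPH and 13.53 to 13.58 in BPL. Of 11 tested 1 (Dio2) was called higher and 0 lower by limma, against 3.18% and 0.926% of all tested probe sets. At an unadjusted p under 0.05, 2 were higher and 4 lower, against 14.2% and 6.4% of all. Ucp1, the uncoupling protein of brown fat, was at 46044, 27118 and 27570 in BPH and at 64979, 63359 and 48780 in BPL. These did not overlap, and the difference of -0.84 ± 0.24 was not called (limma adjusted p = 0.097). The other bright fat markers Adipoq (0.08 ± 0.16), Lpl (-0.04 ± 0.19) and Cidea (-0.63 ± 0.26) overlapped between strains and were not called. The 4 lower at an unadjusted p under 0.05 were Ucp1, Cidea, Cox8b (-0.78 ± 0.27) and Cebpa (-0.56 ± 0.17). The 2 higher were Dio2 (1.16 ± 0.25) and Retn (0.99 ± 0.25). Elovl3 was too dim to be tested, at 91.3, 290 and 329 in BPH and at 789, 864 and 631 in BPL. With no filter its difference was -1.17 (limma adjusted p = 0.089). The part of fat RNA in the Mgst1 difference was not tested.

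Markers of the gland itself were also counted, by the brightest probe set of each gene. Over all tested probe sets 3.18% were called higher and 0.926% lower by limma, with a median difference of 0.08. At an unadjusted p under 0.05, 14.2% had a positive difference and 6.4% a negative one. Of 8 adrenal cortex markers 0 were called by limma, and 2 had a positive difference with an unadjusted p under 0.05 (summed signal 682911 to 798027 in BPH and 551170 to 719425 in BPL, median difference 0.17). Of 8 chromaffin markers 4 were called higher (290892 to 386747 in BPH and 163316 to 260390 in BPL, median 0.87). The ninth measured, Phox2a, a factor of noradrenergic cells named after its values were seen, was too dim to be tested, at 765, 776 and 704 in BPH and at 187, 198 and 189 in BPL. With no filter it was higher (1.27, limma adjusted p = 0.0090). Of 4 liver markers 1 (Cyp2e1) was called higher (list median -0.38). Cyp2e1 was at 102497, 72383 and 73369 in BPH and at 21952, 27160 and 34429 in BPL. It thus did not follow Alb, which was highest in BPL replicate 2, and its call is not a reading of liver RNA. The mean log2 level of liver markers includes it. Of 1 kidney marker and of 5 leukocyte and 6 endothelial markers 0 were called. At an unadjusted p under 0.05 were 0 kidney, 3 leukocyte (all higher) and 2 endothelial markers (1 higher and 1 lower). The mean log2 level of the 9 measured leukocyte markers was 10.13 to 10.20 on BPH arrays and 9.85 to 10.02 on BPL arrays. That mean includes markers too dim to be tested. No marker was listed at 0.

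**Figure D4:**
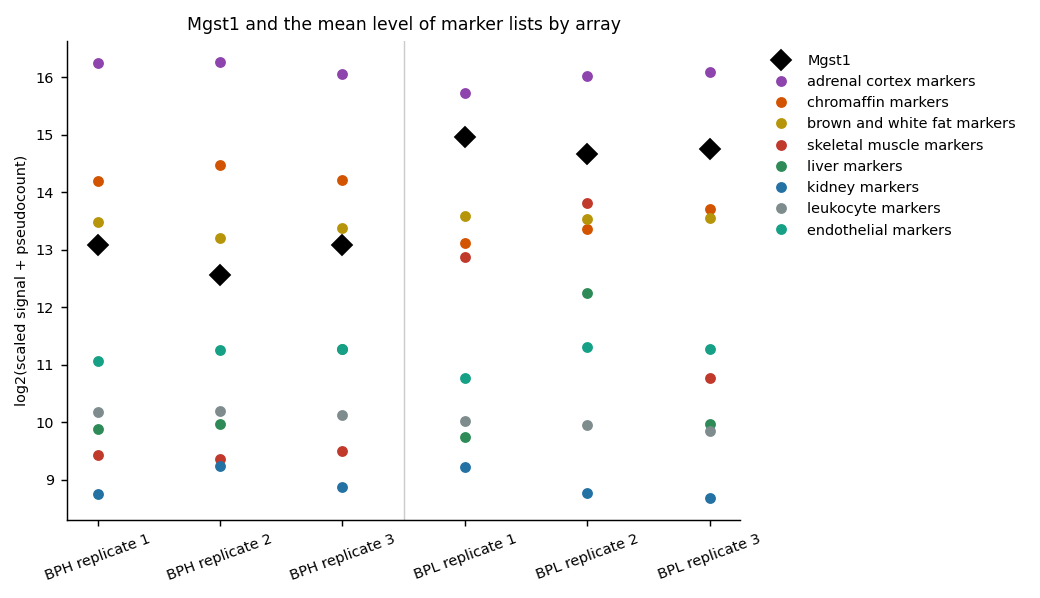
Log2(signal + 203) of Mgst1 (diamonds) and the mean over each marker list (circles) on the 3 BPH arrays at the left and the 3 BPL arrays at the right. Each mean is over all measured genes of the list, with those too dim to be tested. Mgst1, muscle and fat markers lie lower on all BPH than on all BPL arrays, and chromaffin and leukocyte markers higher. Fat markers lie at 13.21 to 13.49 in BPH and 13.53 to 13.58 in BPL. Within BPL muscle markers run from 10.8 to 13.8 and liver markers from 9.73 to 12.2.

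The genes whose log2 signals ran most like Mgst1 over the 6 arrays were Spg21 (95430_f_at, Pearson r = 0.994), Aldh9a1 (96243_f_at, r = 0.99), an aldehyde dehydrogenase, and H2-Q10 (101898_s_at, r = 0.988), a class I histocompatibility gene. These r values describe 6 arrays in which a strain difference is shared, and all 3 were also called lower. None of the 3 is a plain probe set (suffixes f, f and s), so, as for the mu genes, crediting their signals to single genes is uncertain. Spg21 was at 2131, 1607 and 2068 in BPH and at 8467, 8285 and 8615 in BPL, a log2 difference of -2.03 ± 0.16 (limma adjusted p = 3.3e-04). H2-Q10 was at 1512, 799 and 1505 in BPH and at 18626, 14949 and 9297 in BPL. For Gstm1 93543_f_at, which did not separate the strains, the most alike were Kat2a (r = 0.988), Tmem147 (r = 0.988) and Tpra1 (r = 0.985). In the RefSeq gene table Aldh9a1 is the neighbour of Mgst3, whose difference had the opposite sign. The 3 genes most alike to Gstm1 shared its low values in BPH replicate 3 and BPL replicate 1, and none was called.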

How the data were processed

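Biotinylated cRNA from adrenal total RNA was read on Affymetrix arrays, per the labels. The submitters' processing notes name MAS5, and the deposited values are linear intensities, 1 per probe set and array. Not given in the sources used here were the version and settings of MAS5, its scaling target and a genome build. Array medians differed by 21.0%, and all arrays were therefore brought to a common median, 1040. Values were log2(signal + 203), 203 being the 20th percentile, and a probe set whose mean was in the dimmest 40% was not tested, which left 7453 of 12422 (66 controls were left out). BPH was set against BPL, 2-sided, by lmFit and eBayes of limma 3.58.1 under R 4.3.3, with Benjamini-Hochberg adjustment over all tested probe sets. The number of arrays limits the precision.

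Probe sets were named where the platform annotation gives 1 symbol (10833 of 12422), and all 16 member probe sets matched the mouse gene table by gene ID. The members, the lists and the tests were chosen with earlier results of these data known. Named genes were all members, up to 4 called genes of each pathway list, 8 fixed pathway genes (Gsr, Gclc, Gclm, Gpx1, Gpx3, Gpx4, Gstp1 and Gstz1), bright marker genes, and the 3 genes most alike to Mgst1 and to Gstm1. Gss, Dio2, Phox2a, Nr5a1, Gstk1, Gdap1, Clic4, Cox8b, Cebpa, Retn and Elovl3 are named outside this rule, after their values were seen. The pair of arrays left out for its Alb signal and the overlap counts under other scalings were chosen after the data were seen. Identical values in a pair of arrays numbered at most 1.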

Additional observations from a re-analysis of the deposited data

How the results depend on the processing

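The member counts were the same in all 15 alternatives, with 0 probe sets called higher and 1 called lower (Mgst1). These were the authors' scaling, quantile normalization, a pseudocount at the 40th percentile, no filter, a filter on the lowest 60%, a trended and robust variance, the replicate block, each array left out, and 2 pairs of arrays left out. The Mgst1 difference ran from -2.04 to -1.71 (limma adjusted p from 7.1e-05 to 0.032). Its lowest and highest values without a single array were -1.98 and -1.71. The Mgst2 and Gss 162246_r_at calls also held wherever these probe sets were tested. Pathway genes called numbered 3, and 1 without BPL replicates 1 and 2 together, where the lone BPL array is assumed to vary like the BPH arrays. Leaving out single arrays gave 1 (without BPH replicate 2) to 3. The median of all tested probe sets was 0.08, -0.02 with the authors' scaling and -0.0004 after quantile normalization, and 77.5%, 66.3% and 67.4% of calls were higher. Over all probe sets 306 were called, 127 with no filter, 101 to 375 without single arrays, 87 without BPL replicates 1 and 2 and 139 without BPH replicate 3 and BPL replicate 2. Some uncalled member differences moved by over 1.5 times without 1 array. Gstm2 93009_at was at -0.14 without BPH replicate 3, and leaving out BPL replicate 3 gave -0.21 and BPL replicate 1 gave -0.59, against -0.38 with all arrays, and 161357_r_at at -0.20 without BPL replicate 1, against -0.47. Gsta4 was at -0.25 without BPH replicate 2, against -0.47, and Mgst3 at 0.26 without BPL replicate 1, against 0.47. Signs turned only for members that were not called. Gsta2 was at -0.079 with the authors' scaling and, without single arrays, at -0.26 to 0.22, below 0 without BPH replicate 3 (-0.02) and BPL replicate 3 (-0.26). Gstm1 93543_f_at was at -0.088 to 0.090 without single arrays, above 0 without BPH replicate 3 (0.090), BPL replicate 2 (0.02) and BPL replicate 3 (0.05), and at 0.11 without BPH replicate 3 and BPL replicate 2 together. Gstm5 100629_at was at -0.0036, without BPL replicate 1, to 0.25. Gstm5 100631_r_at was at -0.63 to 0.26 without single arrays, above 0 without BPH replicate 1, and at 0.044 without BPL replicates 1 and 2. The cause was not tested. The replicate numbers gave no sign of pairing: deviations of same-numbered arrays from their strain means correlated at -0.06, -0.05 and -0.18. With 3 arrays per strain these correlations depend on each other and cannot show that the samples are unpaired. With the replicate block 239 probe sets were called, Mgst1 at -1.89 (limma adjusted p = 0.0024), with 0 members higher, 1 lower and 2 pathway genes called. Mgst3 99576_at and Gstm5 161722_f_at were tested only with no filter and were not called there (limma adjusted p = 0.76 and 0.54). Stated limits are the 3 arrays per strain, the dim probe sets and the shared sequence of mu genes. The Mgst1 difference rests on 1 probe set and that of Mgst2 on 1 tested probe set.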
